A study of Mus musculus with 96 samples.

Results

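Single mouse oocytes were set against single embryos at the morula stage, the earliest and the latest material of a series of the transcriptome of early mouse development. All animals were of strain C57BL/6J, and the labels name no allele or agent other than the hormones PMSG and HCG, given to the females 46 h apart. Oocytes (n = 8) carried the label for that cell type, and the embryos were labelled as about 84 h after fertilization, with titles that mark them as morulae. Morula libraries entered where they held 100000 gene counts or more, which 6 of 7 did, so 14 of the 96 libraries of the series and all 55401 gene rows were used. The labels state that cumulus cells were stripped off with hyaluronidase, that embryos were kept in KSOM medium and that they were left untreated. The labels give no separate females or cultures behind the numbered libraries, so p-values measure the spread between these libraries. Oocytes and morulae each went through a processing batch of their own, so stage and batch cannot be told apart in any difference reported here.

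A grown oocyte has nearly stopped transcribing and lives on a store of messenger RNA (mRNA) laid down during growth, much of it held with short poly(A) tails. After fertilization this store is cleared in steps while the embryonic genome is switched on, and cleavage divides the egg without growth. At the morula stage the cells flatten against each other, form junctions and begin to separate into an outer layer, the future trophectoderm, and inner cells. The library kit, SMART-Seq v4, primes on poly(A) tails and does not mark strand, so the amount of a transcript and the length of its tail cannot be told apart, and neither can a gene and its antisense partner. A morula is a whole embryo of several cells, so less RNA per cell and fewer cells with the transcript cannot be told apart, and no count here gives the amount of RNA per embryo.

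Total gene counts ran from 564538 to 2730528 in oocytes (median 1997708) and from 1130566 to 4202541 in morulae (median 2099123), with 14092 to 18050 and 14178 to 16989 genes detected. Levels are given as CPM, the counts of a gene scaled to a fixed total of gene counts per library, and where 3 levels stand together they are the lowest, the median and the highest of the group's libraries. Across the 10988 tested genes, log2(CPM + 1) values of library pairs correlated at 0.922 to 0.973 within oocytes and 0.920 to 0.947 within morulae, against -0.03 to 0.07 between the groups. These correlations are across genes, which are not independent replicates. The marker list of the oocyte was present as labelled: Gdf9, Bmp15, Mos, H1foo, Oosp1, Zar1, Npm2 and Zp3 were all counted in all 8 oocytes, with summed levels of 14959, 17087 and 19859 CPM against 88.03, 135.7 and 260.1 CPM in morulae. Of 8 markers fixed for the morula, Tead4, Klf5, Tfap2c and Krt18 were higher in morulae and Atp1b1 was lower. The ranges of oocytes and morulae overlapped for Tfap2c and Krt18. Cdx2, the trophectoderm regulator, was detected in 2 of 6 morulae and in no oocyte, and Nanog was counted in 6 of 6 morulae at 3.10, 11.2 and 17.8 CPM. Krt8 overlapped, at 0.931, 2.51 and 28.3 CPM in oocytes and 0, 4.89 and 23.3 CPM in morulae. Cdx2, Nanog and Krt8 had too few counts to be tested. Sox2 was at 0 counts in all 6 morulae.

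Most of the measured transcriptome differed between the ends. Of 10988 genes tested, 4319 were higher in morulae, which is 39.3% of those tested, and 5347 were lower, which is 48.7% (edgeR quasi-likelihood F test, Benjamini-Hochberg adjusted p under 0.05). Together 88% were called. Changes were at least 2-fold in 3953 of the genes that rose and 5011 of those that fell, and at least 32-fold in 1228 and 1880. The ranges of the groups did not overlap at all for 31.4% of tested genes with morulae higher and for 41.2% with morulae lower. The median log2 change over all tested genes was -0.54, so lists of genes are read against that value and against the shares of 39.3% and 48.7%.

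The libraries were almost exchanged in content. Genes that were higher in morulae took 11.1% to 12.97% of the gene counts of an oocyte and 81.5% to 85.4% of those of a morula. Genes that were lower took 78.1% to 81.2% in oocytes and 7.09% to 9.71% in morulae. These shares follow from the calls and describe their weight. Of the genes tested, 0.537% had 3 counts or fewer over all oocytes and a mean of 50 CPM or more in morulae, and 0.983% had 3 counts or fewer over all morulae and a mean of 50 CPM or more in oocytes. By annotation class, 766 of 1079 tested processed pseudogenes were higher in morulae and 216 lower, against 36.6% and 50.5% of 8899 protein-coding genes. Of 314 long intergenic noncoding RNAs, 47 were higher and 252 were lower. Processed pseudogenes are near copies of expressed genes, among which the authors' counting could split reads, so their calls are uncertain.

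**Figure D1:**
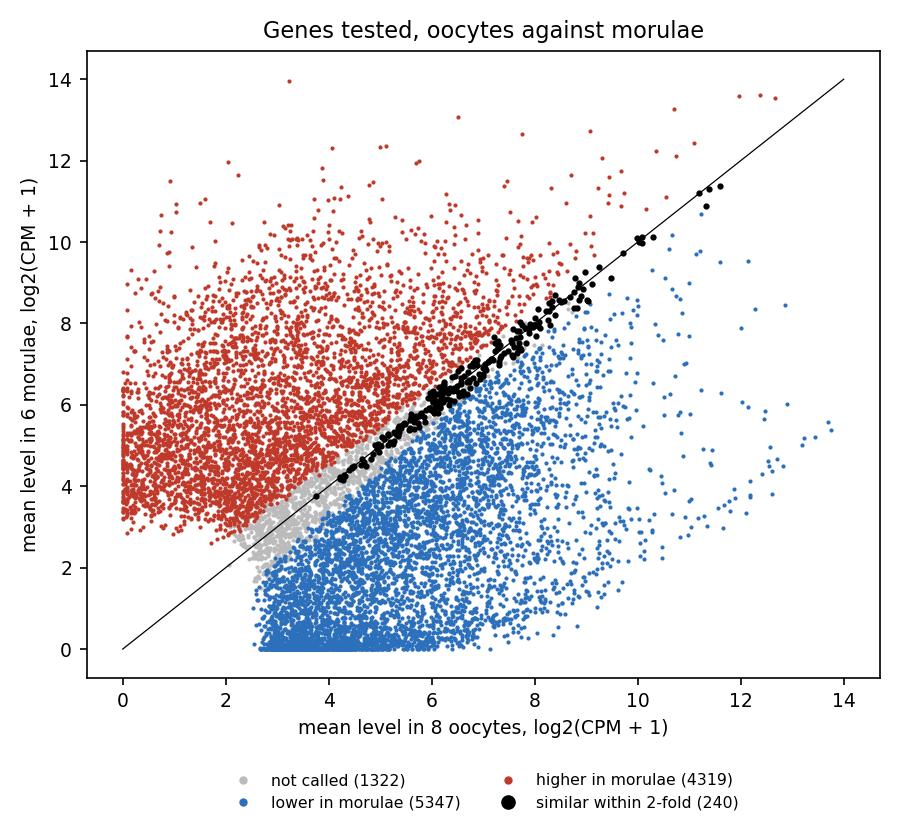
Mean level in the 8 oocytes (x axis) against mean level in the 6 morulae (y axis), both as log2(CPM + 1), for the 10988 genes tested, with the line of equal levels. The 4319 genes called higher lie above the line, the 5347 called lower lie below it, and the 240 called similar within 2-fold follow it over most of the range.

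The genes with the largest rises were close to silent in oocytes and abundant in every morula. Timd2 (chr11:46668960-46707061 in GRCm38), a membrane protein of the T-cell immunoglobulin and mucin family that binds ferritin, was measured at 0, 2.63 and 35.4 CPM in oocytes and 13437, 15167 and 19047 CPM in morulae. Its log2 change was 11.56 ± 0.70 (SE, edgeR adjusted p = 6.2e-12). The lists of largest rises and falls took only genes with ranges apart and a mean of 50 CPM or more in the higher group. Crxos (chr7:15882617-15904020), a homeobox gene, went from 0, 0.524 and 2.79 CPM to 2410, 3005 and 3354 CPM, a log2 change of 12.24 ± 0.34. Obox6, of the oocyte-specific homeobox family, went from 0, 0.501 and 3.54 CPM to 1074, 2022 and 2575 CPM (11.63 ± 0.41). Both homeobox genes lie within one stretch of chromosome 7. Trim43b, a TRIM-family protein gene, rose by 11.42 ± 0.42 to 895, 1572 and 2413 CPM in morulae, and Pdxk, the kinase that activates vitamin B6, by 11.60 ± 0.48 to 791, 1314 and 1611 CPM.

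A further 7 of the 12 largest rises had only 1 to 3 counts over all 8 oocytes, so their change is given as a ratio of counts summed over libraries with a counting interval. Pramel7, a PRAME-like gene known for its part in ground-state pluripotency, was at 398, 565 and 683 CPM in morulae, a ratio of 7953 (95% interval 1427 to 314160). Its neighbour Pramel6 was at 361, 458 and 674 CPM, a ratio of 7741 (95% interval 1389 to 305790), and Pramel5, on chromosome 4, was at 189, 336 and 436 CPM, a ratio of 4911 (95% interval 881 to 194020). The other 4 were Actn2, an actin cross-linker, Stmn3, a stathmin that destabilises microtubules, Klhl10, a substrate adaptor of a ubiquitin ligase, and Sord, which oxidises sorbitol. Their morula medians were 475, 201, 153 and 485 CPM. Genes of the Pramel, Obox and Trim43 families have near-identical copies, among which reads may be split.

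The largest falls were of genes that every oocyte carried and that were nearly or fully absent from the morula libraries. Klf7 (chr1:64029447-64122282), a Krüppel-like transcription factor, was measured at 109.8, 143.3 and 158 CPM in oocytes and had no count in any of the 6 morulae. Against a floor of 3 counts over the morulae, its level was at least 665-fold lower. Pabpn1l, an oocyte poly(A)-binding protein that acts in mRNA decay, went from 203, 296 and 516 CPM to 3 counts over all morulae, a ratio of oocytes to morulae of 1636 (95% interval 559.7 to 7938). Ptprr, a receptor tyrosine phosphatase, was at 142.4, 183 and 204 CPM in oocytes with 2 counts in morulae (ratio 1279 (95% interval 354 to 10567)). The same pattern held for Mesp2, a transcription factor of somite formation, at 138.2, 162 and 227 CPM in oocytes with 2 counts in morulae (ratio 1217 (95% interval 337 to 10053)). The chemokine receptor Cxcr3, the orphan receptor Gpr149 and the glutamate receptor Grm4 had oocyte medians of 108.7, 90.3 and 96.9 CPM and 1 count each in morulae. Also listed by the same rule were Tubal3, an alpha-tubulin relative, Th, the first enzyme of catecholamine synthesis, Fam155a, an accessory protein of a sodium leak channel, and the noncoding RNA Usp46os2, with oocyte medians of 90.1, 80.2, 61.02 and 62.8 CPM.

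**Figure D2:**
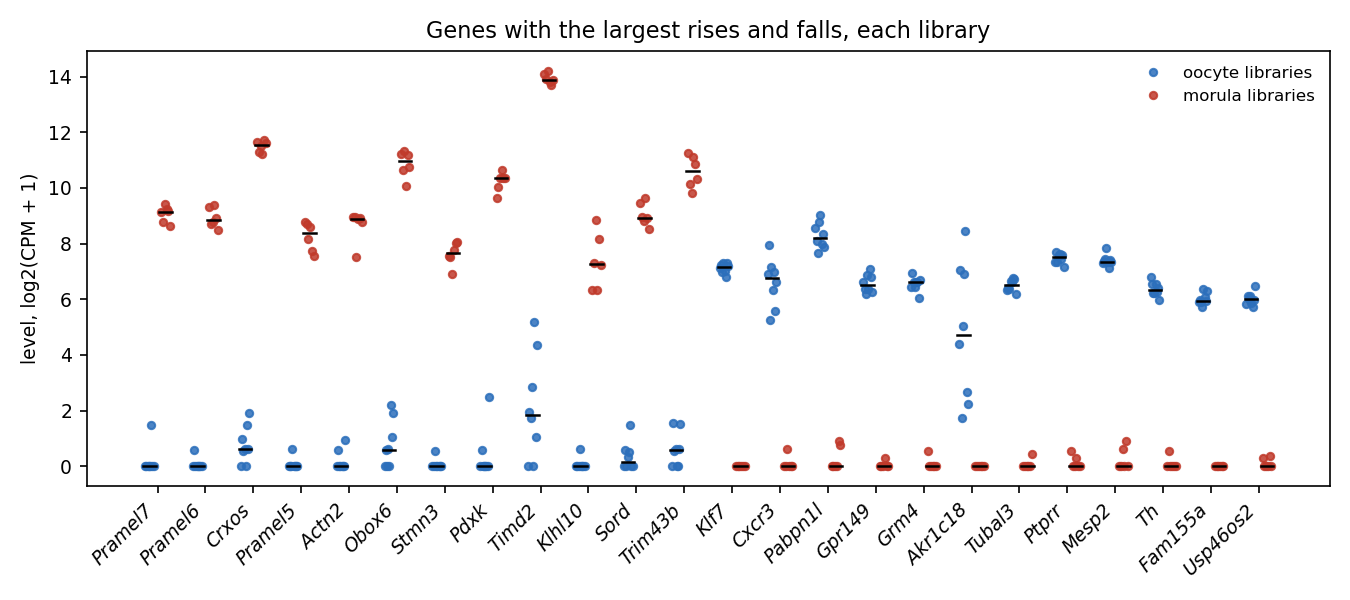
Level of each gene with the largest rise (left 12) and the largest fall (right 12) in each library, as log2(CPM + 1), with oocytes in blue, morulae in red and the median of each group as a black line. Only genes with ranges apart could be chosen, so the gap between the groups follows from the choice. Akr1c18 spreads most widely among the oocytes.

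The remaining member of that list, Akr1c18, degrades progesterone in granulosa and luteal cells and is one of 21 markers of cumulus and granulosa cells that were followed through. It was measured at 2.35, 26.1 and 349 CPM in oocytes, a spread unlike that of the other falls, and was at 0 counts in all morulae (edgeR adjusted p = 0.00211). The 21 markers summed to 539.8, 981.2 and 1562 CPM in oocytes and to 10.5, 14.9 and 34.0 CPM in morulae, and all 5 that could be tested were lower in morulae. Cyp11a1, which starts steroid synthesis, was at 2.82, 182 and 332 CPM in oocytes, and Cyp19a1, which makes oestrogen, at 63.7, 85.7 and 100.4 CPM. Serpine2, a protease inhibitor, was at 449.6, 589 and 749 CPM. Tnfaip6, which builds the cumulus matrix, was at 0, 19.8 and 58.6 CPM. Untested for low counts but present in most oocytes were Star, Inha, Ptgs2, Inhba, Kctd14 and Vcan, with highest levels of 27.4, 35.9, 24.8, 12.6, 4.14 and 8.16 CPM. Fshr, Amhr2, Has2, Ptx3 and Ereg were counted in 4 oocytes or fewer, at most at 5.31 CPM, and Amh, Lhcgr, Foxl2, Areg and Pgr were at 0 counts in all oocytes. Amhr2, not tested, went against the list, with 13 counts over the oocytes and 79 over the morulae. The part of such cells in the genes that fell was not tested. A list of 10 blood and oviduct markers summed to 14.7, 63.3 and 967.2 CPM in oocytes and 2.02, 25.1 and 52.2 CPM in morulae. Its globin genes Hba-a1 and Hba-a2 went against the sum, with 30 and 8 counts over the oocytes and 192 and 71 over the morulae. The highest oocyte sum came from replicate 8, where the macrophage gene Lyz2 alone was at 934 CPM. Without oocyte replicate 8, 4416 genes were higher and 5036 lower.

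A smaller set of genes ended near its starting level. A gene was called similar where 2 one-sided tests placed its change within 2-fold either way (adjusted p under 0.05), which 240 genes passed, or 2.18% of those tested. A gene that merely missed the test for a difference was not counted, and 1095 genes were neither called nor similar. Of the 240, 227 were not called in either direction, while 6 were also higher and 7 also lower by less than the bound. The largest change among them was 0.48 on the log2 scale, and 236 had overlapping ranges. The set rests on precision: the median SE was 0.19 among the similar genes and 0.36 over all genes tested. The count is the least settled result of the comparison, at 429 with DESeq2, 120 with the seventh morula library kept in, 0 with a bound of 1.5-fold and 0 with the replicate block.

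The 12 similar genes of highest level were mt-Co1, H3f3b, Psma7, Skp1a, Cks2, Oaz1-ps, Sub1, Med10, Dpy30, Tipin, Ncl and Sap18b. Skp1a, the adaptor of SCF ubiquitin ligases, was measured at 1036, 1054 and 1262 CPM in oocytes and 937, 1085 and 1306 CPM in morulae, a log2 change of 0.08 ± 0.14 (similarity adjusted p = 0.00177, edgeR fit). Cks2, a binding partner of cyclin-dependent kinases, was at 868, 1006 and 1189 CPM and 916, 1053 and 1380 CPM (0.13 ± 0.14). Med10, a Mediator subunit, was at 749, 851 and 911 CPM and 592, 901 and 989.9 CPM (0.06 ± 0.16). For all 3 the ranges of oocytes and morulae overlapped, and for Med10 the morulae enclosed the oocytes. Sub1, a transcription coactivator, changed by 0.02 ± 0.17, the proteasome subunit Psma7 by -0.12 ± 0.17, and Dpy30, a subunit of histone H3 lysine methyltransferase complexes, by -0.33 ± 0.16. The nucleolar protein Ncl, at 432, 559 and 608 CPM and 289, 429 and 825 CPM, changed by -0.09 ± 0.22 and spread more widely among morulae than among oocytes, and its similarity was lost without morula replicate 7 (adjusted p = 0.0584). H3f3b, which encodes the replacement histone H3.3, was both within the bound and lower, at -0.41 ± 0.16, and Tipin, of the replication fork, and Sap18b were both within it and higher, at 0.34 ± 0.14 and 0.38 ± 0.17. The calls of difference for these 3 were lost when single libraries were left out, with adjusted p up to 0.244 for H3f3b (morula replicate 2, among 10 of 14 such fits), 0.0723 for Tipin (oocyte replicate 1) and 0.09998 for Sap18b (morula replicate 8, with the call also lost without oocyte replicate 1 or 7) in the same edgeR test. Oaz1-ps is an antizyme pseudogene and mt-Co1 a gene of the mitochondrial genome with nuclear copies, so both values are uncertain.

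Among similar genes of at least 100 CPM, the smallest changes were those of Tmed2, Uchl4, Atp6v1c1, Son, Memo1, Wdr75, Nasp, Nsmce2, Atp5b and Rnf4. Tmed2, a cargo receptor of the secretory pathway, was measured at 88.4, 128.8 and 170.1 CPM in oocytes and 82.04, 129.2 and 160.2 CPM in morulae (-0.0027 ± 0.18). Nasp, a chaperone of histones H3 and H4, was at 165, 187 and 226 CPM and 120.3, 183 and 244 CPM, and Son, a scaffold of nuclear speckles, at 198, 228 and 342 CPM and 169, 216 and 359 CPM. Atp6v1c1, of the vacuolar proton pump, was at 106.9, 134.6 and 200.2 CPM and 77.9, 141.1 and 203 CPM. In each of these 4 genes the morula range covered most of that of the oocytes. Nsmce2, a SUMO ligase of the SMC complex that repairs DNA, and Rnf4, a ubiquitin ligase that reads SUMO chains, had medians of 270.1 and 246 CPM in oocytes and 264 and 224 CPM in morulae.

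**Figure D3:**
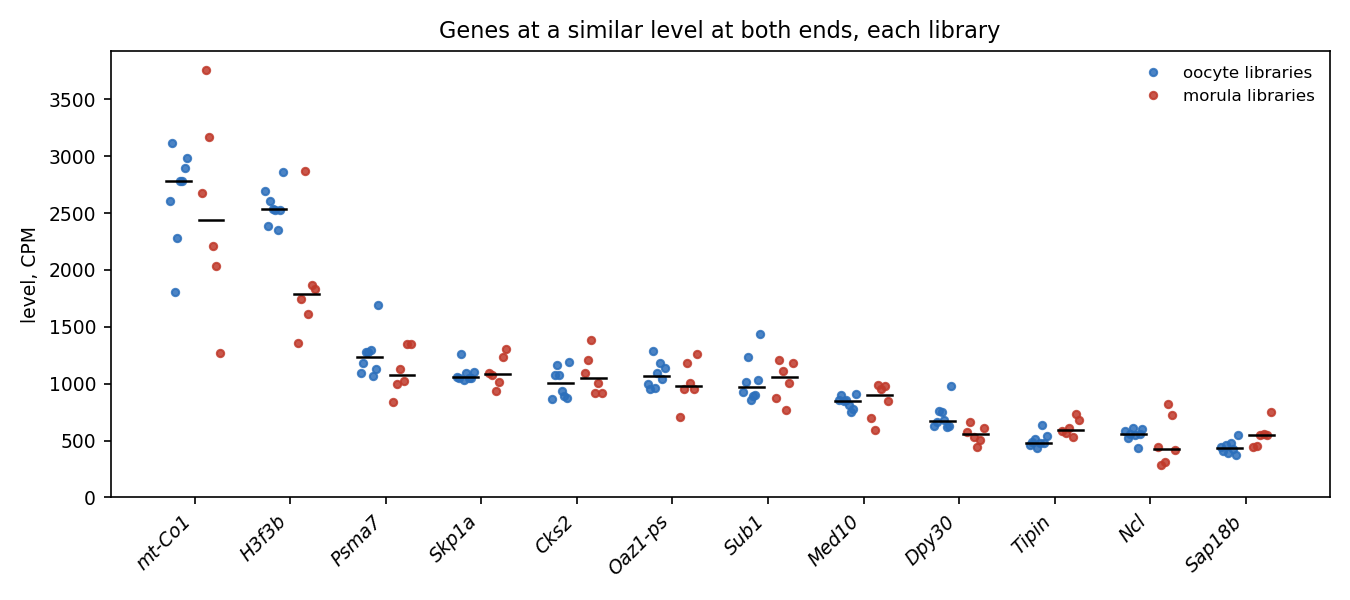
Level in CPM, on a linear axis from 0, of the 12 similar genes of highest mean level in each of the 8 oocytes (blue) and 6 morulae (red), with group medians as black lines. The ranges of the groups overlap for every gene drawn, and mt-Co1 and H3f3b spread most among the morulae.

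Many of the similar genes were measured at other levels at the times between. The 81 libraries of the 14 times between, from 0 h to 36 h, belong to another processing cohort. Their levels are set beside the ends as a description with no test, and stage and cohort cannot be told apart in them. Taking group medians, 99 of the 240 genes stayed within 2-fold of the geometric mean of the end levels at all 14 times. A further 77 fell under that range at 1 or more times and never rose above it, 41 rose above it and never fell under it, and 23 did both. The time with most departures was 36 h, the late 2-cell stage, with 53 genes under the range and 27 over it. The genes named next were chosen after these values were seen, as the 3 of at least 100 CPM with the lowest level between, the highest and the narrowest span.

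Psma7 was at 47.8, 129.2 and 179 CPM at 36 h, where no embryo reached the lowest oocyte or morula (1070 and 838 CPM). Zcrb1, an RNA-binding protein of the minor spliceosome, had end medians of 233 and 227 CPM and stood at 10.96, 22.9 and 219 CPM at 24 h, where the highest embryo still lay within the range of the oocytes. Polr2d, a subunit of RNA polymerase II, went the other way: its end medians were 219 and 245 CPM and its level at 0 h was 689.8, 918 and 1179 CPM, above every oocyte and every morula. Sub1 was also above every oocyte and morula at 0 h, at 3023, 3368 and 4541 CPM, and under every one at 36 h, at 349.9, 494 and 656 CPM. The mitochondrial transcript mt-Nd3, with medians of 187 and 236 CPM at the ends, stood at a median of 25.9 CPM after 2 h but reached 758 CPM by the last 2-cell time. By contrast Eif3i, of translation initiation factor 3, and Srp14, of the signal recognition particle, kept group medians of 242 to 377 CPM and of 314 to 447 CPM over all 16 groups. The similarity of mt-Nd3 was itself lost in 12 of 14 fits that left out 1 library, with adjusted p up to 0.214 without morula replicate 6.

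**Figure D4:**
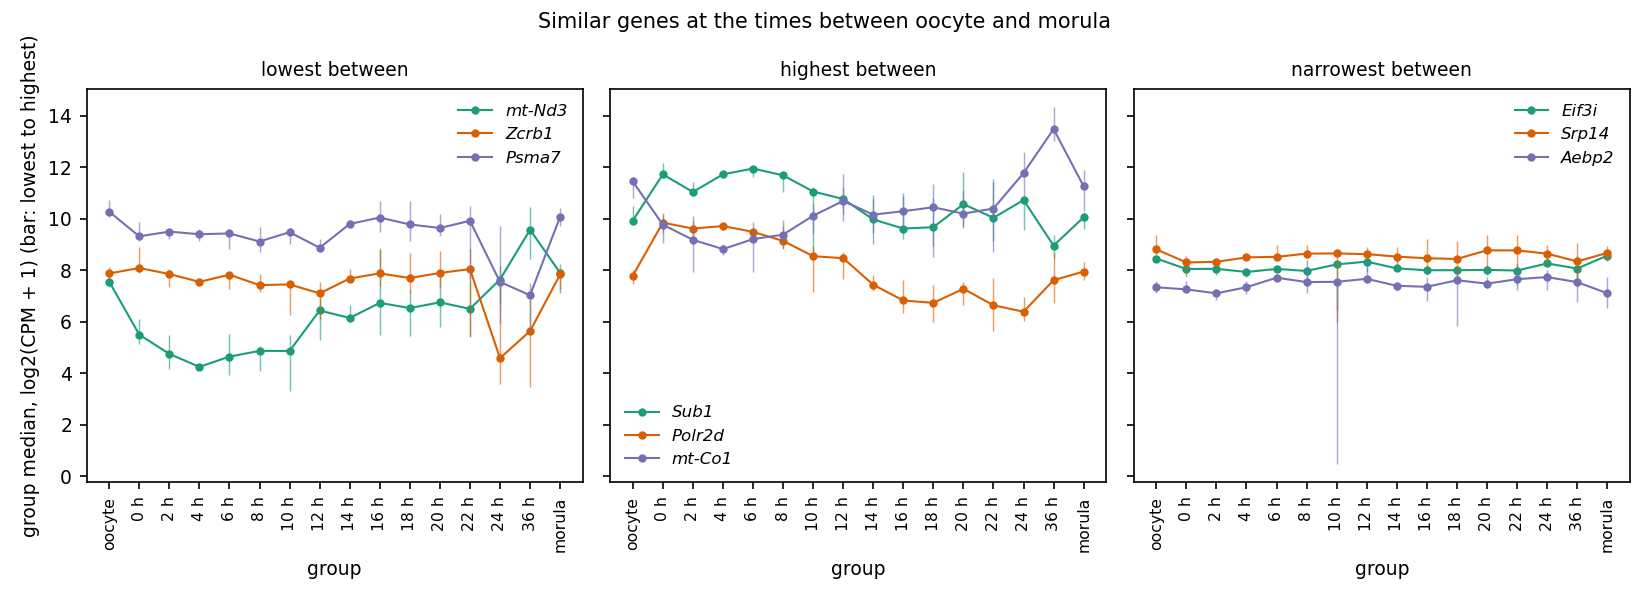
Group medians of 9 similar genes over the 16 groups from oocyte to morula, as log2(CPM + 1), with bars from the lowest to the highest library. The left and middle panels hold genes that leave the end levels between, such as Psma7 at 36 h and Polr2d at 0 h, and the right panel holds those with the narrowest span, where 1 embryo at 10 h lies far under its group.

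Genes of the egg coat and maternal-effect lists were lower in the morula, with 2 exceptions. All 11 tested genes of the egg coat and of secreted oocyte factors were lower, against 48.7% of all genes tested. The list's median log2 change was -6.20. Gdf9, a growth factor that the oocyte sends to its follicle cells, went from 3225, 4156 and 5677 CPM to 3.33, 6.67 and 22.1 CPM (-9.01 ± 0.35), and its partner Bmp15 from 487, 654 and 850.2 CPM to 3.33, 7.37 and 12.4 CPM (-6.55 ± 0.28). Oosp1 and Oosp3, secreted proteins of the oocyte, fell by 6.20 and 8.32 on the log2 scale. Zp3, the sperm-binding protein of the zona pellucida, was the mildest, at 49.8, 67.7 and 100.96 CPM in oocytes and 27.8, 45.1 and 54.7 CPM in morulae (-0.64 ± 0.23), and its ranges overlapped. The other zona genes, Zp1 and Zp2, went from medians of 119.5 and 89.8 CPM to 1.78 and 2.36 CPM.

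Over all genes tested, 48.7% were lower and 39.3% higher, with ranges apart for 41.2% and 31.4%. Of 31 tested maternal-effect genes, whose products from the mother are needed in the early embryo, 29 were lower and 2 higher. The ranges of oocytes and morulae were apart for all 31. The median change was -7.38 and the summed level went from 65972, 75505 and 79329 CPM to 8986, 12704 and 16167 CPM. Zbed3, of the subcortical maternal complex, went from 9206, 14758 and 15836 CPM to 22.7, 38.1 and 74.3 CPM (-8.42 ± 0.28), Tcl1, a coactivator of the Akt kinase, from 11905, 13492 and 14668 CPM to 21.9, 45.5 and 84.03 CPM (-8.17 ± 0.26), and Bcl2l10, a relative of Bcl2, from 8596, 8914 and 10690 CPM to 13.6, 28.4 and 58.4 CPM (-8.26 ± 0.29). One exception was Dppa3, which shields the maternal genome from loss of DNA methylation: it rose from 3438, 3704 and 5341 CPM to 8346, 11987 and 15629 CPM (1.67 ± 0.17). The other was Khdc3, itself a subunit of the subcortical maternal complex, which rose from 2.18, 3.42 and 7.97 CPM to 116.8, 239 and 689 CPM (6.32 ± 0.44). Its partners Nlrp5, Ooep, Tle6 and Padi6 went the other way, from medians of 251, 385, 63.8 and 303 CPM to 3.21, 10.2, 6.77 and 16.6 CPM.

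Because these genes fell together, the 250 bases before their transcription start were searched on both strands for TAATTG, the element bound by NOBOX, a homeodomain factor of the oocyte. RefSeq promoters (build GRCm38.p6) were at hand for 23 of the 32 listed genes, and 5 of 23 held the motif (21.7%), against 971 of 16733 of all promoters (5.80%) and 156 of 3236 of those of genes lower in morulae (4.82%). The promoters of Nlrp9a (chr7:26534773-26535022, plus strand), an oocyte NLR gene that fell by 7.86 on the log2 scale, and Oog4 (chr4:143450325-143450574, minus strand), an oogenesin gene that fell by 7.82, are shown as the holders with the largest falls among those whose RefSeq and GENCODE starts lie within 25 bases, the motif in capitals in either orientation. A match describes letters and is not a measured site, and both genes belong to families of near copies. Several motifs were searched in every gene list, and most of those shares are not given. TAATTG stood in 0 of 8 promoters of the egg coat list and 0 of 18 of the mRNA storage and decay list. The list of meiotic arrest and maturation had it in 2 of 26 (7.69%).
Nlrp9a: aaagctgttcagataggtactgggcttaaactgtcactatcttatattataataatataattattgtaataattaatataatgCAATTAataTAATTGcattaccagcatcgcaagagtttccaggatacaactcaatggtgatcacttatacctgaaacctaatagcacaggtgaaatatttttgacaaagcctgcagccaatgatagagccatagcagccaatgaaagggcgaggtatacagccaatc
Oog4: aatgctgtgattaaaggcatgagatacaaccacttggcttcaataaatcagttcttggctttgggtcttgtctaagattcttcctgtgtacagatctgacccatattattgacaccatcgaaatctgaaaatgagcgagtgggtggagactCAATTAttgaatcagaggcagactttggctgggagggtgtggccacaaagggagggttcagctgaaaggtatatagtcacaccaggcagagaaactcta

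Of 29 tested genes of meiotic arrest and maturation, 18 were lower and 9 higher (median -1.79), beside 48.7% and 39.3% of all genes tested. Among those that fell were Wee2, the oocyte inhibitor of Cdk1, from 509, 744 and 789.6 CPM to 0.476, 2.71 and 9.73 CPM (-7.89 ± 0.38), and Mos, the kinase that holds the egg in metaphase, from 44.01, 106.2 and 191 CPM to 0, 0.358 and 0.885 CPM (-8.22 ± 0.50). Lower too were the cyclin Ccnb1, from 1754, 2361 and 3019 CPM to 678, 838 and 1160 CPM (-1.40 ± 0.15), and the checkpoint protein Mad2l1, by -1.79 ± 0.14. Cdk1, the mitotic kinase itself, rose from 17.7, 28.3 and 47.5 CPM to 586, 813 and 1198 CPM (4.92 ± 0.22). Birc5, of the chromosomal passenger complex, and Arpp19, an inhibitor of phosphatase 2A, also rose, from medians of 161 and 155 CPM to 482 and 469 CPM.

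Of 22 tested genes that store or degrade maternal mRNA, 16 were lower, 2 higher and 4 not called (median -3.35). Lower and higher shares over all genes tested were 48.7% and 39.3%. Btg4, which brings the CCR4-NOT deadenylase to maternal mRNA, went from 8823, 9587 and 10367 CPM to 17.8, 30.02 and 56.6 CPM (-8.12 ± 0.27). Its partner Cnot7, a deadenylase, fell by 4.02 on the log2 scale and the decapping protein Dcp1a by 6.77. Cnot8, a deadenylase of the same kind as Cnot7, was similar, at 134.8, 151 and 207 CPM and 110.6, 127.5 and 179 CPM (-0.19 ± 0.17). Cnot1, the scaffold of the complex, rose from a median of 29.4 to 62.4 CPM, and Ybx3, an RNA-binding Y-box protein, rose from 56.8, 111.6 and 123.6 CPM to 139.7, 205 and 355 CPM (1.15 ± 0.21).

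**Figure D5:**
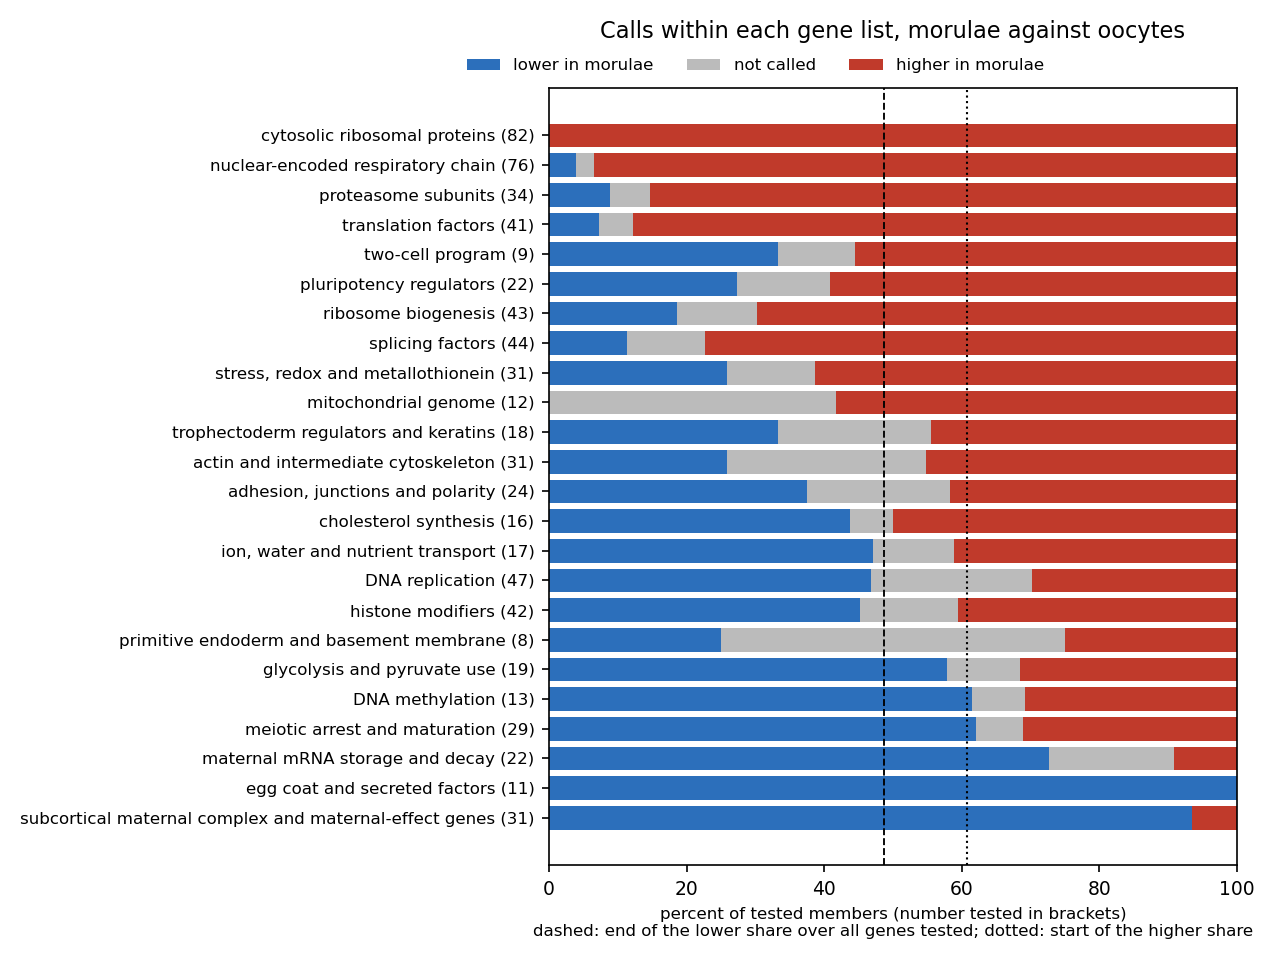
Share of the tested members of each of 24 gene lists called lower (blue), not called (grey) or higher (red) in morulae, ordered by median change, with the dashed and dotted lines at the shares over all 10988 genes tested. The ribosomal proteins are red throughout (82 of 82), the egg coat list is blue throughout (11 of 11), and most regulatory lists are mixed.

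The genes for the protein-making apparatus rose as a block. All 82 cytosolic ribosomal protein genes tested were higher in morulae and none of their ranges overlapped, against 39.3% of all tested genes higher and 31.4% higher with ranges apart. Their median log2 change was 6.35, and their summed level went from 1167, 1382 and 1754 CPM to 40323, 43672 and 55805 CPM. Rpl41 went from 18.8, 34.3 and 46.9 CPM to 3969, 5545 and 6517 CPM (7.37 ± 0.24) and Rplp0, of the ribosomal stalk, from 65.7, 79.3 and 92.1 CPM to 1480, 1783 and 2074 CPM (4.52 ± 0.16). The smallest rises were those of Rpl17 (0.80 ± 0.23) and Rps27l (1.60 ± 0.20). Rps27l had oocyte levels of 443, 523 and 761 CPM, and its relative Rps27 had 0, 0.259 and 1.10 CPM there and 44.3, 65.5 and 115.03 CPM in morulae. Ribosomal protein genes have many processed copies, among which reads may be split.

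The motif CCGGAAG, bound by ETS-family factors, stood within 250 bases before the start, on either strand, in 15 of 56 ribosomal protein promoters that could be matched (26.8%), and in 1583 of 16733 of all promoters (9.46%). The shares were 19.6% for genes higher in morulae (452 of 2307), 13.4% for genes lower (435 of 3236) and 22.1% for genes at a similar level (32 of 145). These shares are descriptions, since expressed genes of every class had the motif more often than all promoters did. By the same rule on starts, the holders with the largest rises are shown with the motif in capitals: Rps7 (chr12:28635954-28636203, minus strand), which rose by 6.62, and Rpl19 (chr11:98026460-98026709, plus strand), which rose by 6.61 on the log2 scale. In both the capitals read on the opposite strand. CCGGAAG was more frequent than in the ribosomal list in DNA replication (14 of 37, 37.8%) and splicing factors (11 of 35, 31.4%). The same held for proteasome subunits (8 of 26, 30.8%) and translation factors (8 of 29, 27.6%). It was less frequent in the other lists with matched promoters.
Rps7: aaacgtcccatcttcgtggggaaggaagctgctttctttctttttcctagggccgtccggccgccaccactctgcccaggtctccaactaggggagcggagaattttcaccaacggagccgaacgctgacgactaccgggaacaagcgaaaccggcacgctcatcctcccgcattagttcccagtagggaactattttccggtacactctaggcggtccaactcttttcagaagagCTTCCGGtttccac
Rpl19: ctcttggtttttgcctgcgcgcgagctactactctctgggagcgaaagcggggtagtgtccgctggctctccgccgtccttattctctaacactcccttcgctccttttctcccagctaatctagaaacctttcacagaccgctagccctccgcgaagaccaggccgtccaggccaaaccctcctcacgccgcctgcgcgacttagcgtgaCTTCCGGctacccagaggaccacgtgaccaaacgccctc

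Other core machines rose nearly as completely. Of 76 nuclear-encoded respiratory chain genes tested, 71 were higher and 3 lower (median 4.19), beside 39.3% and 48.7% of all genes tested. Atp5j, a coupling subunit of ATP synthase, went from 2.82, 15.5 and 26.2 CPM to 1289, 1299 and 1582 CPM (6.53 ± 0.31), and Uqcr10, of complex III, from 7.09, 13.9 and 20.7 CPM to 748, 1040 and 1206 CPM (6.20 ± 0.24). The 3 that fell were Ndufa10, Sdha and Uqcrc2, from medians of 501, 157 and 318 CPM to 86.97, 34.3 and 77.8 CPM, and Atp5b, the catalytic subunit of ATP synthase, was similar at 341, 415 and 482 CPM and 335, 379 and 508 CPM (0.02 ± 0.15). In the mitochondrial genome, 7 of 12 tested genes were higher, none lower and 4 similar. There mt-Cytb went from 4773, 5410 and 5998 CPM to 8024, 12471 and 15420 CPM (1.26 ± 0.14), while mt-Nd3, mt-Co1, mt-Co3 and mt-Atp6 were the similar ones.

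The same division into a rising majority and a few maternal-high members was seen in the proteasome. There 29 of 34 subunit genes were higher and 3 lower (median 2.89), beside 39.3% and 48.7% of all genes tested. Psma6 went from 27.4, 49.3 and 60.5 CPM to 989, 1211 and 1565 CPM (4.79 ± 0.21) and Psmb1 rose by 5.62 ± 0.19, whereas Psmd1 fell by 2.31 and Psmd3 was similar (0.01 ± 0.19). Of 41 translation factors, 36 were higher and 3 lower (median 2.77), with Eif2s2 going from 492, 589.9 and 965 CPM to 3352, 4183 and 5621 CPM (2.80 ± 0.18). Eif1 and Eif3i were the similar ones, at 0.09 ± 0.14 and 0.12 ± 0.14. Of 44 splicing factors, 34 were higher and 5 lower (median 1.72). Srsf7 rose from 76.2, 84.1 and 98.1 CPM to 1029, 1293 and 1706 CPM (3.99 ± 0.17), Sf3b1, the branch-point protein, fell from a median of 959 to 345 CPM, and the Sm protein Snrpd1 was similar (0.07 ± 0.17). In ribosome biogenesis 30 of 43 genes were higher and 8 lower, and Nhp2, of the H/ACA particles, went from 4.08, 6.87 and 11.4 CPM to 1724, 1793 and 2433 CPM (8.07 ± 0.24) while Dkc1, the enzyme of the same particles, fell from 423, 535 and 569 CPM to 72.3, 185 and 249 CPM (-1.60 ± 0.21).

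Regulators of pluripotency moved in both directions, as did all genes tested (39.3% higher and 48.7% lower). Of 22 tested, 13 were higher and 6 lower (median 2.12). Dppa5a, an RNA-binding protein of pluripotent cells, went from 6.96, 12.02 and 21.3 CPM to 3048, 3631 and 4167 CPM (8.16 ± 0.26), Dppa4 from 0.366, 0.950 and 1.77 CPM to 248, 434 and 489 CPM (8.90 ± 0.31) and Dppa2 from 24.4, 28.9 and 41.8 CPM to 402, 640.0 and 991 CPM (4.46 ± 0.19). Klf5, a Krüppel-like factor of early embryos, was at 4 counts over all oocytes and at 162, 239 and 409.5 CPM in morulae (9.95 ± 0.46), while its relative Klf17 went from 681, 1020 and 1218 CPM to 3.49, 9.47 and 18.03 CPM (-6.72 ± 0.33). Pou5f1, the central pluripotency factor, was at 23.03, 37.96 and 57.8 CPM in oocytes and 35.4, 51.8 and 104.6 CPM in morulae (0.66 ± 0.27). Stat3 and Il6st, of the pathway that LIF uses, had oocyte medians of 70.1 and 41.3 CPM and morula medians of 4.95 and 0 CPM. Of 9 testable genes listed for the 2-cell program, 5 were higher and 3 lower, and the Zscan4 genes, its best-known members, were too low at both ends to be tested. Those higher include Pramel6 and Pramel7, whose medians were 61.6 and 23.3 CPM at 36 h against 458 and 565 CPM in morulae. The count therefore does not describe genes limited to the 2-cell stage.

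Among 18 tested trophectoderm regulators and keratins, 8 were higher, 6 lower and 4 not called (median 0.46). All genes tested also went both ways, with 39.3% higher and 48.7% lower. Tead4, which acts with the Hippo effectors to start the trophectoderm, had 1 count over all oocytes and 37.7, 45.3 and 74.6 CPM in morulae, a ratio of 723 (95% interval 129.3 to 28590). Its 2 coactivators differed: Wwtr1 rose from a median of 2.26 to 30.2 CPM and Yap1 fell from 127.5, 148.1 and 166 CPM to 11.5, 26.2 and 46.9 CPM (-2.40 ± 0.23). Gata3, a later trophectoderm factor, was higher in oocytes, at 110.2, 130.8 and 140.8 CPM against 0.349, 2.18 and 25.2 CPM (-4.15 ± 0.57), and Cited2, a transcription coregulator, fell by 6.20. Nf2, an upstream member of the Hippo pathway, was similar (-0.04 ± 0.26), but this call was lost in 13 of 14 fits that left out 1 library, with adjusted p up to 0.159 without morula replicate 4. Of 8 tested genes of the primitive endoderm and basement membrane, Gata6 rose from 0, 1.87 and 11.1 CPM to 56.9, 158 and 196 CPM (5.52 ± 0.47) and the basement membrane protein Nid1 also rose, while Lamb1 and Sparc fell. Sparc, a matrix protein that somatic cells also make, was at 0, 27.7 and 59.1 CPM in oocytes, beside the cumulus marker sums given above.

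Junction and polarity genes moved in both directions, with 10 of 24 tested higher and 9 lower (median 0.38). Over all genes tested the shares were 39.3% and 48.7%. E-cadherin (Cdh1), which holds the compacting cells together, was similar at 30.03, 37.2 and 44.6 CPM and 15.9, 32.6 and 48.8 CPM (-0.15 ± 0.24), while its intracellular partners Ctnnb1 and Ctnna1 fell from medians of 172 and 137.99 CPM to 38.2 and 51.1 CPM. The similarity of Cdh1 was lost in 7 of the 14 fits that left out 1 library, with adjusted p up to 0.130 without morula replicate 4. Gja1, a gap junction channel, rose from 0, 7.75 and 15.5 CPM to 128.1, 209.9 and 406 CPM (5.12 ± 0.43), and the tight junction gene Cldn7 from a median of 1.34 to 108.3 CPM. Rdx, which ties actin to the membrane, fell from 2098, 2751 and 3216 CPM to 5.59, 24.1 and 33.5 CPM (-7.00 ± 0.29). Cdc42, a small GTPase of polarity, rose from 191, 244 and 303 CPM to 683, 718 and 909 CPM (1.64 ± 0.15). Of 31 actin and filament genes, 14 were higher and 8 lower. Pfn1, the actin-binding profilin, rose from 61.2, 88.8 and 165 CPM to 1052, 1493 and 2362 CPM (4.20 ± 0.25), and Arpc2, of the Arp2/3 complex, was similar (0.18 ± 0.17).

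Transport and metabolism lists held genes of both directions, as did all genes tested (39.3% higher and 48.7% lower). Of 17 transport genes 7 were higher and 8 lower: the transferrin receptor Tfrc rose from 3.54, 6.15 and 11.97 CPM to 196, 323 and 729 CPM (5.71 ± 0.29), the amino acid transporter chain Slc3a2 fell from 240.2, 294 and 372 CPM to 13.96, 43.3 and 107.6 CPM (-2.61 ± 0.29), and the water channel Aqp9 was similar (-0.17 ± 0.21, lost without oocyte replicate 1 at adjusted p = 0.0710). Of 19 genes of glycolysis and pyruvate use 6 were higher and 11 lower (median -0.99). Ldhb, the main lactate dehydrogenase subunit of the egg, fell from 1136, 1774 and 2334 CPM to 15.2, 49.05 and 89.3 CPM (-5.05 ± 0.34), whereas the mitochondrial pyruvate carrier Mpc2 rose from 14.6, 20.7 and 30.02 CPM to 692, 843 and 1249 CPM (5.48 ± 0.23) and Mpc1 by 2.31 ± 0.16. Both subunits of pyruvate dehydrogenase E1, Pdha1 and Pdhb, rose, from medians of 16.02 and 103.2 CPM to 178 and 217 CPM. Of 16 cholesterol synthesis genes 8 were higher and 7 lower. The early enzyme Hmgcs1 fell from a median of 251 to 26.1 CPM, and Fdft1, which makes squalene, rose from 25.4, 35.2 and 51.4 CPM to 94.9, 168 and 207 CPM (2.22 ± 0.21).

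DNA replication genes moved in both directions or ended level, beside 39.3% higher and 48.7% lower over all genes tested. Of 47 tested, 14 were higher, 22 lower and 11 not called, and Gmnn, Ccna2, Gins4 and Orc4 were similar. Gmnn, geminin, which blocks repeated replication within a cycle, was at 422, 460.5 and 514 CPM and 414, 485 and 598 CPM (0.17 ± 0.14), and the cyclin Ccna2 at 297, 313 and 384 CPM and 268, 339 and 391 CPM (0.10 ± 0.14). Orc6, of the origin recognition complex, fell from 875, 976 and 1247 CPM to 240.0, 344 and 402 CPM (-1.56 ± 0.16), and Tyms, which makes thymidylate, rose from 3.72, 9.26 and 15.02 CPM to 440.0, 494 and 665 CPM (5.89 ± 0.24). In DNA methylation 8 of 13 genes were lower and 4 higher. The maintenance methyltransferase Dnmt1 fell from 303, 342 and 392 CPM to 0.949, 5.95 and 13.3 CPM (-5.69 ± 0.31) and its cofactor Uhrf1 from a median of 214 to 4.79 CPM. Dnmt3l, a cofactor of de novo methylation, rose from 7.91, 9.30 and 16.6 CPM to 20.3, 55.96 and 81.7 CPM (2.42 ± 0.31).

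Of 42 histone modifiers 17 were higher and 19 lower, beside 39.3% and 48.7% of all genes tested. The 3 core subunits of Polycomb repressive complex 2 differed: Ezh2, the enzyme, fell from 498, 520.0 and 578 CPM to 41.2, 68.7 and 98.5 CPM (-2.86 ± 0.17), Eed was similar at 244, 308 and 347 CPM and 206, 273 and 354 CPM (-0.12 ± 0.15), and Suz12 was higher at 0.59 ± 0.22. The call for Suz12 was lost without morula replicate 3 (edgeR adjusted p = 0.107). Of 31 stress and redox genes 19 were higher and 8 lower (median 1.09). Mt1, a metal-binding metallothionein, rose from 0.939, 17.3 and 25.1 CPM to 838, 1826 and 2452 CPM (6.88 ± 0.42) and the cochaperone Dnaja1 from 99.6, 116.02 and 139.6 CPM to 1114, 1435 and 2016 CPM (3.70 ± 0.17), while the mitochondrial chaperone Hspa9 was similar (-0.31 ± 0.18), a call lost without oocyte replicate 1 or 7 or morula replicate 7 (adjusted p up to 0.0626). Hsp90aa1, a cytosolic chaperone, and Prdx1, a peroxidase, were lower by 0.52 and 0.44, and each of these calls was lost in 8 of the 14 fits that left out 1 library, with adjusted p up to 0.152 for Hsp90aa1 (oocyte replicate 8) and 0.234 for Prdx1 (morula replicate 2).

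In 29 pairs of related genes, of which the first is known as the oocyte or germ-cell form, or was taken as such here, 23 pairs could be tested in full. In 6 the first member fell and the second rose, where 48.7% of all genes tested were lower and 39.3% higher. Whether 6 exceeds what unrelated genes would give was not tested. Eif4e1b, the oocyte form of the cap-binding protein, had 2 counts over all morulae after 30.02, 32.8 and 55.3 CPM in oocytes (ratio of oocytes to morulae 270.5 (95% interval 74.5 to 2239)), and Eif4e rose from 311, 389 and 437 CPM to 1315, 2041 and 2426 CPM (2.39 ± 0.16). Npm2, the egg nucleoplasmin, fell by 5.36 and Npm1 rose from 498, 590.3 and 697 CPM to 2292, 2504 and 3070 CPM (2.14 ± 0.14). The importin Kpna7 fell by 7.69 and Kpna2 rose by 1.30, the kinase Aurkc fell by 5.57 and Aurkb rose by 2.92, and the 5-methylcytosine oxidase Tet3 fell by 7.35 while Tet1 rose by 1.39. The pair of Klf17 and Klf5 is given above. In 12 pairs the first member fell and the second did not rise or could not be tested, such as Bcl2l10 with Bcl2l1 (-3.22 ± 0.45), Lsm14b with Lsm14a (-3.43 ± 0.23) and Ldhb with Ldha (-1.78 ± 0.49). In 11 pairs the first did not fall or could not be tested. One of these was Elobl, an oocyte relative of elongin B, which was at 62.03, 87.9 and 116.4 CPM in oocytes and 44.1, 87.3 and 138.9 CPM in morulae (-0.01 ± 0.22), while Elob itself rose from 1.88, 7.31 and 12.1 CPM to 543, 625 and 716 CPM (6.48 ± 0.29). Elobl was among the similar genes.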

How the data were processed

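RNA of single oocytes and embryos was made into cDNA with SMART-Seq v4 and into libraries with Nextera XT, per the labels' protocols. The authors' deposited table holds expected counts per gene, since 28.4% of non-zero gene values are not whole (tolerance 1e-06). The submitters' processing notes name Trimmomatic 0.39, STAR, featureCounts and the build mm10, and counting options are not given in the sources used here. Counts were rounded, and CPM was computed over 55401 gene rows, leaving out 873 repeat family rows. Symbols and positions come from GENCODE M21 by gene identifier (55141 matched) and promoters from RefSeq.

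Genes passing edgeR's filterByExpr were tested on the 14 libraries with TMM scaling, the robust quasi-likelihood fit and Benjamini-Hochberg adjustment (edgeR 4.0.16 in R 4.3.3). The SE is the log2 change over the square root of F. A gene was similar where 2 one-sided tests on that SE placed it within 2-fold at an adjusted p under 0.05. On data simulated for 10988 genes of this comparison, 94.9% of 4-fold and 37.5% of 2-fold changes were recovered. There 0.0194% of unchanged genes were called, and 79.4% of unchanged and 5.21% of 2-fold changed genes were called similar. Whether these rates hold in the measured libraries, where 88% of genes were called and 2.18% were similar, was not tested. Alternatives were DESeq2 1.42.0, limma 3.58.1 on log2(CPM + 1), library-size scaling, no filter, all 7 morulae, a fit of 16 groups, a replicate block, a 1.5-fold bound and leaving out each library. Depth limits precision, and a count of 0 was bounded by 3 counts over the group, which covers counting error only, as do the exact 95% intervals of ratios.

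The members and lists were chosen with earlier results of these data known. Named were the 12 largest rises and 12 largest falls among called genes with ranges apart and a mean of 50 CPM or more in the higher group, the 12 similar genes of highest level and the 10 of smallest change at 100 CPM or more, from each list up to 4 called members of highest level (3 of 1 direction at most) and up to 2 similar ones, and all markers and related pairs. Symbols of predicted genes were left out, and a few genes that the rule names are not reported here. Other list members named here were chosen after their values were seen.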

Additional observations from a re-analysis of the deposited data

Results flagged for a closer look

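Single libraries stood apart from the rest of their group in 26 of 254 levels tested (Dixon's criterion: the gap to the nearest library, divided by the range of the group, is above the 95% critical value), where chance alone flags about 5 percent of groups. The levels share libraries, so they are not independent. Oocyte replicate 8 was the highest of its group for Psma7 (1691 CPM), Dpy30 (977 CPM), Son (342 CPM) and Npm2 (773 CPM), and the lowest for Wee2 (509 CPM), Dkc1 (423 CPM) and Hspa9 (123.8 CPM). The same library held the highest sum of blood and oviduct markers, 967 CPM. Oocyte replicate 6, which also had the highest sum of cumulus markers, was the highest for Akr1c18 (349 CPM), Rnf4 (340.1 CPM), Aqp9 (89.5 CPM), Ccna2 (384 CPM) and Cdc25b, a phosphatase that activates Cdk1 (20.4 CPM), and the lowest for Ncl (432 CPM). Replicates 6 and 8 also had the fewest gene counts (564538 and 1074190) and genes detected (14092 and 15604) of all oocytes. Oocyte replicate 4 was high for Mesp2 (227 CPM) and oocyte replicate 3 for Skp1a (1262 CPM).

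Among morulae, replicate 8 was the highest for Sap18b (751 CPM) and Rps27 (115.03 CPM). Morula replicate 6 was the highest for Krt18, a keratin of the outer cells (71.1 CPM), and Cnot8 (179 CPM), and the lowest for Aqp9 (36.2 CPM). Morula replicate 4 was the highest for H3f3b (2872 CPM) and the lowest for Actn2 (181 CPM), and replicate 2 the highest for Son (359 CPM) and the lowest for Aurkb (11.9 CPM). Morula replicate 3 was the highest for the cohesin subunit Rad21 (587 CPM). The causes were not tested.

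Rows of repeat families, which enter no comparison of genes, held a median of 9.17% of all counts in morulae against 4.88% in oocytes, and were noticed because that lies above the highest oocyte (5.82%).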

How the results depend on the processing

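Counts of genes higher and lower stayed within 1.5 times the main values of 4319 and 5347 under 21 of 22 alternatives each, and no gene called here was called in the opposite direction under any of them. Leaving out 1 library at a time gave 4242 to 4526 higher and 4954 to 5554 lower. Without the filter on low counts, 28160 genes were tested, of which 8632 were higher, 8980 lower and 95 similar. The similar set depended on the settings: against 240, it held 429 genes with DESeq2, 120 with all 7 morulae, 584 in 1 fit of 16 groups, 0 with the replicate block, 87 in the libraries of that block without it (added after seeing the data), 0 with a bound of 1.5-fold, and 145 to 223 with 1 library left out. Apart from the narrower bound and the smaller numbers of libraries, the causes were not tested. Deviations of same-numbered libraries correlated at 0.00995 to 0.1003, and 1 of 6 morulae was closest to its own number. So few and weak values cannot decide whether the replicate numbers link libraries. The replicate block gave 4096 higher and 4614 lower. Among single genes, 212 of 3461 values under alternatives lost their call and 0 reversed.

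The stages were processed in separate batches and the labels name no spike-in, which limits every fold change to shares of the library. Groups of 8 and 6 leave a similar level testable only for genes of low spread, the lowest mean level being 12.5 CPM. The seventh morula library, with 10378 counts, correlated at 0.3898 with the other morulae and 0.440 with oocytes. Its cumulus markers summed to 578 CPM, which in so small a library rests on very few counts and is uncertain.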

Other observations

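Counts assigned to repeat families, copies of mobile elements spread over the genome, were exchanged between the ends as well. They made up 5.02% ± 0.577 of all counts in oocytes (SD, n = 8) and 9.20% ± 2.14 in morulae (SD, n = 6), with no overlap (exact permutation test, two-sided, p = 0.000666, the smallest this design can give). Of 873 families, 72 had ranges apart with morulae higher and 196 with morulae lower, on the scale of CPM of gene counts. The families named here were chosen after their values were seen. The short interspersed element B2_Mm1a went from 4139, 7662 and 11126 CPM to 24959, 35169 and 62205 CPM, B1_Mm from 102.3, 115.9 and 195 CPM to 1634, 2254 and 3193 CPM, and the young LINE-1 family L1Md_T from 109.5, 182 and 259.6 CPM to 1038, 1814 and 2265 CPM. Among long terminal repeat families, MT2B1 went from 56.4, 75.4 and 94.4 CPM to 1554, 2221 and 2791 CPM and RLTR45-int from 6.82, 13.1 and 21.7 CPM to 1370, 1997 and 3099 CPM, while MT2_Mm, the repeat of the MERVL element of 2-cell embryos, went from 48.2, 58.6 and 65.5 CPM to 423, 519.8 and 591 CPM. In the other direction, MTA_Mm-int, of the elements that serve as promoters in growing oocytes, went from 7124, 9227 and 11078 CPM to 299, 518 and 747 CPM, and MTC-int from 398, 476 and 569 CPM to 6.70, 11.6 and 20.02 CPM. Copies of a family lie inside genes as well as outside them, and counts per family do not tell these apart.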
